A study of Mus musculus with 24 samples.

Results

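The genes described here are 40 core interferon-stimulated genes, picked by symbol because type I interferon induces them in many cell types. Each was represented by the probe set annotated to that symbol alone with the highest mean over the 24 arrays. Of the 40 genes, 39 had such a probe set, among 18193 genes measured in the same way. Isg15, which encodes a ubiquitin-like modifier, had only a probe set annotated to 2 genes and was not measured by this rule.

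RNA came from macrophages grown from the bone marrow of male mice, and all groups carried the Il10tm1Cgn allele, which disrupts the gene of the anti-inflammatory cytokine interleukin 10. CB-R1 mice (labelled C3Bir.B6-Cdcs1 Il10-/-) had the C3Bir background and a long B6 segment of chromosome 3 with the colitis susceptibility locus Cdcs1. C3Bir mice (C3H/HeJBir-Il10tm1Cgn) were the colitis-susceptible parent. BC-R3 mice (labelled B6.C3Bir-Cdcs1 Il10-/-) had the B6 background and the Cdcs1 region of C3Bir. B6 mice (C57BL/6J-Il10tm1Cgn) were the colitis-resistant parent. In each strain 3 arrays came from cells given 1 µg/mL of CBir flagellin, a protein of gut bacteria, for the last 4 h of a 6-day culture, and 3 from unstimulated cells. The labels give 3 mice per genotype and RNA pooled from 3 wells, but no age, and do not tie an array number to a mouse, so all p-values cover only array-to-array spread, which may be in part technical.

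Values are log2 signals as deposited. Array medians lay between 6.55 and 6.64 and lower quartiles between 5.29 and 5.42, with correlations of 0.987 to 0.998 between arrays of a group. The number of arrays, 3 a group, limits the precision. Il10 was highest in unstimulated B6 cells, at 7.16, 8.70 and 8.41, where the other 7 groups ran from 6.36 to 7.44, and the position of its probe set relative to the disruption was not examined. All 8 macrophage markers lay above the lower quartile on all arrays, with a mean of 11.99 to 12.58. The 5 measured neutrophil markers did so too, with a mean of 13.24 to 13.50 in CB-R1, against 11.64 to 13.11 in the other strains. Of the lymphocyte and dendritic cell markers, Cd3g of T cells and Xcr1 of a dendritic cell type lay below it on all arrays.

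Interferon-stimulated genes are the effector arm of the interferon response. Cells that sense viral nucleic acid or bacterial products secrete type I interferon, which binds the receptor chains Ifnar1 and Ifnar2. Receptor-bound kinases then activate STAT proteins, and with Irf9 these bind the interferon-stimulated response element, ISRE, in the promoters of the target genes. The products block viral entry, translation and replication, sense more nucleic acid, and in part restrain the pathway. Macrophages make these products readily, and a low basal interferon signal keeps many of them measurable at rest.

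RefSeq promoters of build GRCm38.p6, each 300 bases long from before to just after a start assigned to the gene, were found for 31 of the 40 genes. The ISRE core, GAAA, any 2 bases and GAAA on either strand, occurred in a promoter of 12 of these 31 genes, 38.7%, against 3.99% of 27025 genes with a promoter entry. The GAS core TTCNNNGAA, the element bound by STAT dimers, occurred in 7 of the 31, 22.6%, against 9.55%. A match is a description of letters, not a site known to be bound. The promoters below are of genes whose values are described further on: Ifit1 and Ifit3 with a pair of cores each, Rsad2 with 1, Ddx60 with 2 cores near its start, Ifitm3, which moved little, and Cmpk2, which moved most among genes with an entry and had no match. Capitals mark the ISRE core on either strand, and 1 core of Ifitm3 overlaps a GAS core.
Ifit1, chr19:34640639-34640938, plus strand: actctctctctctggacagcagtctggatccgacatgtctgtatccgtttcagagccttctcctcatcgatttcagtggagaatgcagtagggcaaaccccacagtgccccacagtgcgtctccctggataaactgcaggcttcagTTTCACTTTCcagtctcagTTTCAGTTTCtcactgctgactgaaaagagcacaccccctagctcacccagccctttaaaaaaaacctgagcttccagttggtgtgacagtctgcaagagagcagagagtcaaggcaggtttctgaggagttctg
Ifit3, chr19:34583279-34583578, plus strand: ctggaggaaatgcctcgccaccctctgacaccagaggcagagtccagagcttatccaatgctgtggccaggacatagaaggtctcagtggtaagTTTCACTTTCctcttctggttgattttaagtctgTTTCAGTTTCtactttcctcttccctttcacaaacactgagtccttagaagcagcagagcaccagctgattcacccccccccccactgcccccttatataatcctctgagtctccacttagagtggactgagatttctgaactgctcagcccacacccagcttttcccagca
Rsad2, chr12:26456403-26456702, minus strand: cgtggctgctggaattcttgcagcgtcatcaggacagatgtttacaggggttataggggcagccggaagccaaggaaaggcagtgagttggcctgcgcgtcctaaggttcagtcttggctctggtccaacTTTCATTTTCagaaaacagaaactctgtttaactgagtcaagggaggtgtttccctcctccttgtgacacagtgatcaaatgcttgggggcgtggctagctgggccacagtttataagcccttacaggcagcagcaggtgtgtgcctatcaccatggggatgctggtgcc
Ddx60, chr8:61927837-61928136, plus strand: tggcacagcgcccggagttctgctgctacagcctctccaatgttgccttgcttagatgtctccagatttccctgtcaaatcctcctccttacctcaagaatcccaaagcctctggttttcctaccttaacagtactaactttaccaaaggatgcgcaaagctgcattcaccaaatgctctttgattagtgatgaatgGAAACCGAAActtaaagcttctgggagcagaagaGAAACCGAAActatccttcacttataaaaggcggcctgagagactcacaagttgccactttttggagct
Ifitm3, chr7:141010695-141010994, minus strand: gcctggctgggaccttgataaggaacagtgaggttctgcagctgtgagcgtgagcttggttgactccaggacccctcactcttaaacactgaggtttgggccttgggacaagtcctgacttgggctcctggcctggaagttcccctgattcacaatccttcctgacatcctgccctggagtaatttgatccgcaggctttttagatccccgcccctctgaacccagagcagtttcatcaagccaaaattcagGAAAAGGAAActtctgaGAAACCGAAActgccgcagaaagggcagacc
Cmpk2, chr12:26468965-26469264, plus strand: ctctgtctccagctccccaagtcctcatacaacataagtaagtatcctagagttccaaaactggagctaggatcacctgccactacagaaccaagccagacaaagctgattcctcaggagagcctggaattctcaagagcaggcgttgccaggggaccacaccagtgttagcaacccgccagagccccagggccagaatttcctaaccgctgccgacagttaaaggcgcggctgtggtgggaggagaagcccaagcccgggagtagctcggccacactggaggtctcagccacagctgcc

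Positions were counted from the start assigned to each promoter entry. The first base of the cores lay 104 and 85 bases before the start in Ifit1, 156 and 122 in Ifit3, 120 in Rsad2, and 53 and 19 in Ddx60. The gene start of Ifit3, at 34583119, lies upstream of its whole entry, so both cores lie after that gene start. The gene start of Cmpk2, at 26469117, lies near the middle of its entry, so fewer bases before it were searched. In Ifitm3 both cores lay after the start, 3 and 20 bases in. The range of a gene's log2 signal over the 24 arrays had a median of 2.88 in the 11 measured genes with a core and of 2.28 in the 19 with an entry and no core, and both sets spanned about the same width, 1.18 to 4.57 and 0.95 to 4.87.

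The 39 genes moved together from array to array, and unstimulated B6 cells had the highest levels. The mean over the 39 genes was 10.52, 10.37 and 10.94 on CB-R1 flagellin arrays 1, 2 and 3, against 9.93, 10.10 and 10.76 on CB-R1 unstimulated arrays. It was 10.58, 9.76 and 9.81 in C3Bir with flagellin, against 10.30, 10.24 and 10.06 unstimulated. In BC-R3 it was 9.94, 9.89 and 10.35 with flagellin, against 10.77, 9.78 and 9.65 unstimulated. In these 3 strains the conditions overlapped. In B6 it was 10.81, 9.23 and 9.74 with flagellin, against 11.03, 11.80 and 11.82 unstimulated, so the conditions did not overlap, with B6 flagellin array 1 close below B6 unstimulated array 1.

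By group the mean over the genes was 11.55 ± 0.45 in unstimulated B6 cells (SD, n = 3). The next was 10.61 ± 0.29 in CB-R1 with flagellin, then 10.26 ± 0.44 in unstimulated CB-R1 and 10.20 ± 0.12 in unstimulated C3Bir. Lowest were 10.07 ± 0.61 in unstimulated BC-R3, 10.06 ± 0.25 in BC-R3 with flagellin, 10.05 ± 0.46 in C3Bir with flagellin and 9.93 ± 0.81 in B6 with flagellin. From CB-R1 with flagellin downward, neighbours in this order lay within their spread.

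**Figure D1:**
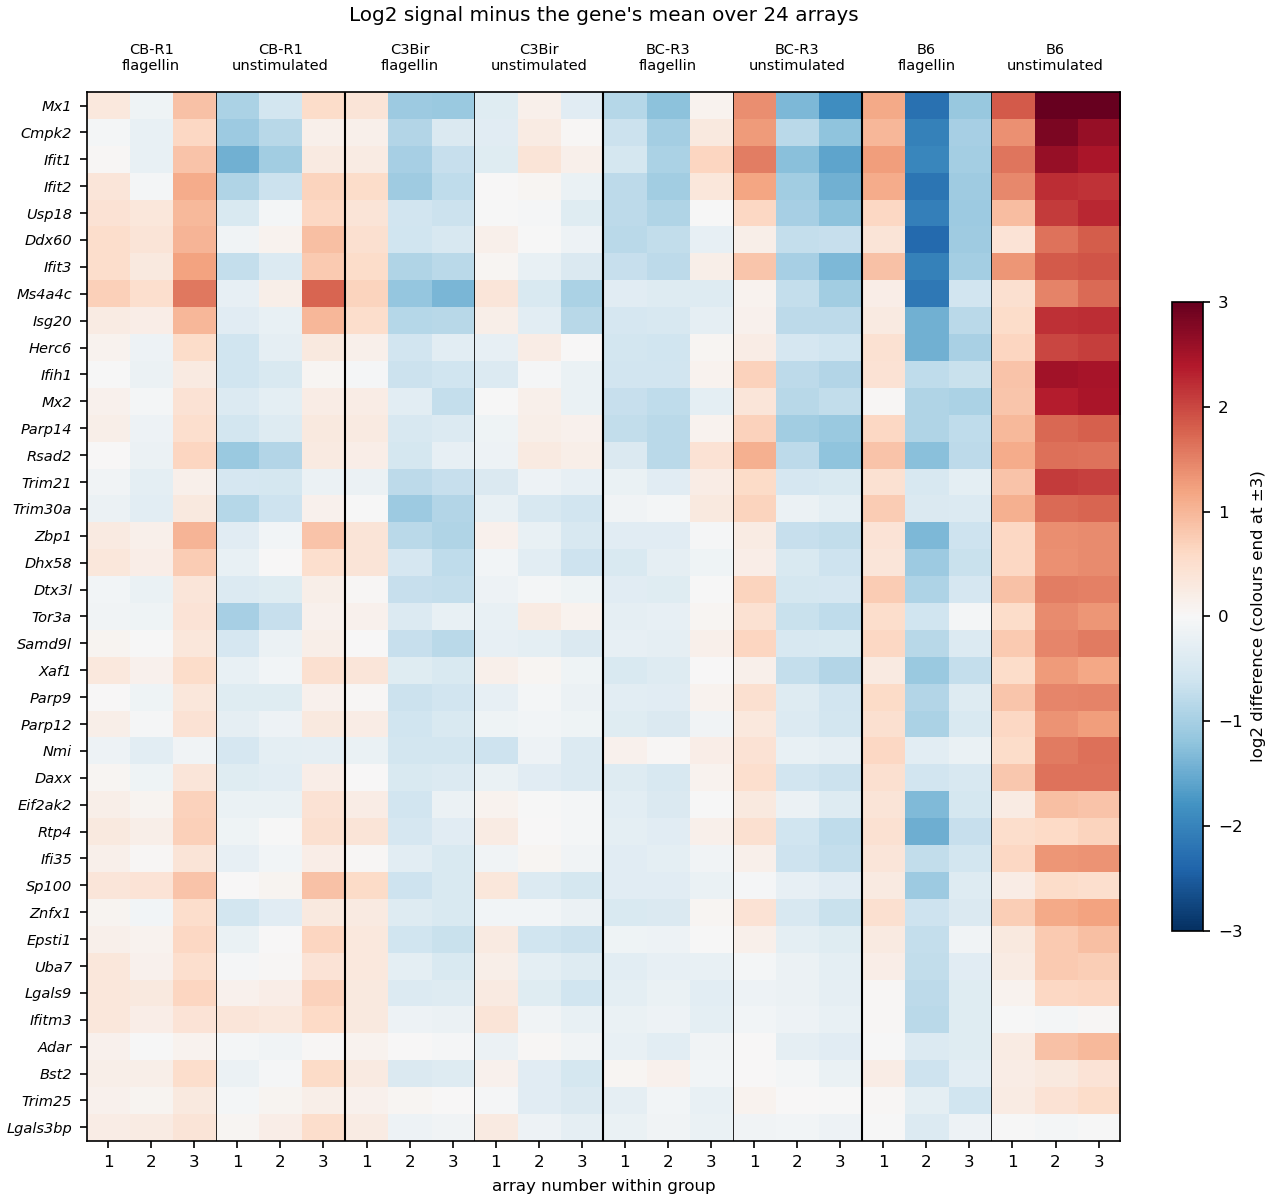
Log2 signal of the 39 genes (rows, by range over the arrays) on the 24 arrays (columns, 3 per group), as the difference from each gene's mean over all arrays; red is higher and blue lower. B6 unstimulated arrays 2 and 3 are high and B6 flagellin array 2 is low in most rows, and single arrays of other groups stand apart in nearly all rows.

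The shared movement included arrays of the same group. B6 flagellin array 1 was above arrays 2 and 3 of its group in 39 of 39 genes, against 34.9% of all genes. The same held for C3Bir flagellin array 1 in 39 of 39, against 30.9% of all genes, and for CB-R1 unstimulated array 3 in 39 of 39, against 33.8%. BC-R3 unstimulated array 1 was above its group in 38 of 39 genes, against 39.9% of all genes. At the extremes, B6 flagellin array 2 was the lowest of the 24 arrays in 29 of 39 genes, against 5.32% of all genes. B6 unstimulated arrays 2 and 3 were above the other 22 arrays in 32 of 39 genes, against 8.62% of all genes, and all 3 B6 unstimulated arrays were above the other 21 in 22 of 39, against 1.85%. The counts that rest on B6 unstimulated arrays 2 and 3 are also given without them.

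In B6 macrophages 35 of the 39 genes were lower with flagellin and 0 were higher (limma, adjusted p under 0.05), where 9.49% of all genes were lower and 12.9% higher. The median change was -1.53 on the log2 scale, against -0.02 over all genes, and the changes ran from -3.49 in Mx1 to -0.16 in Lgals3bp. In 33 of the 39 the 3 flagellin arrays lay below the 3 unstimulated arrays, which held for 14.0% of all genes. In bulk RNA, fewer expressing cells and less RNA per cell cannot be told apart. The 3 IFIT genes, whose products bind foreign RNA, all fell. Ifit1 had 12.28, 9.08 and 10.00 in B6 with flagellin, against 12.63, 13.64 and 13.48 unstimulated, and was 6.96-fold lower (-2.80 ± 0.74, log2 ± SE, limma adjusted p 0.0134). The groups did not overlap, but flagellin array 1 stood next to unstimulated array 1. Ifit2 had 12.31, 9.003 and 10.13 with flagellin, against 12.64, 13.41 and 13.38 unstimulated, a change of -2.66 ± 0.70 (limma adjusted p 0.0128). Ifit3 had 12.22, 9.32 and 10.31 with flagellin, against 12.65, 13.18 and 13.22 unstimulated, a change of -2.40 ± 0.61 (limma adjusted p 0.0104). In all 3 genes flagellin array 2 was the lowest and unstimulated arrays 2 and 3 were the highest.

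The dynamin-like GTPases Mx1 and Mx2, which block incoming viruses and which RefSeq lists as transcribed pseudogenes in the B6 reference assembly, both fell in B6. Mx1 had 10.60, 7.23 and 8.32 with flagellin, against 11.31, 12.69 and 12.63 unstimulated, and was 11.2-fold lower (-3.49 ± 0.77, limma adjusted p 0.00551). Mx2 had 8.97, 8.02 and 7.97 with flagellin, against 9.76, 11.27 and 11.36 unstimulated, a change of -2.48 ± 0.37 (limma adjusted p 0.00193). In neither gene did the groups overlap. In Mx2 flagellin arrays 2 and 3 were alike, whereas in Mx1 flagellin array 2 was the lowest of all 24 arrays.

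All 3 RNA sensor genes fell in B6. Ifih1, the sensor MDA5 of long double-stranded RNA, had 10.68, 9.49 and 9.57 with flagellin, against 11.10, 12.78 and 12.71 unstimulated, a change of -2.28 ± 0.42 (limma adjusted p 0.00293). Dhx58, the regulator LGP2 of that sensor, had 9.69, 8.24 and 8.66 with flagellin, against 9.96, 10.71 and 10.75 unstimulated, a change of -1.61 ± 0.33 (limma adjusted p 0.00439). Ddx60, a related helicase, had 8.52, 5.80 and 7.06 with flagellin, against 8.53, 9.76 and 9.93 unstimulated. Its highest flagellin array was just below its lowest unstimulated array, and its change was -2.28 ± 0.49 (limma adjusted p 0.00507).

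Of the enzymes and sensors that act on nucleic acids or nucleotides, all 8 fell. Cmpk2, a mitochondrial nucleotide kinase, had 11.34, 8.31 and 9.35 with flagellin, against 11.72, 13.18 and 12.95 unstimulated, a change of -2.95 ± 0.64 (limma adjusted p 0.00544). Its neighbour on chromosome 12, Rsad2, which encodes viperin, had 13.35, 11.24 and 11.72 with flagellin, against 13.61, 14.14 and 14.11 unstimulated, a change of -1.85 ± 0.53 (limma adjusted p 0.0185). The 6 arrays stood in the same order in both genes. Zbp1, a sensor of Z-form nucleic acid, had 9.36, 7.60 and 8.34 with flagellin, against 9.57, 10.35 and 10.38 unstimulated, a change of -1.66 ± 0.42 (limma adjusted p 0.00998). Eif2ak2, the double-stranded RNA kinase PKR, had 8.82, 7.11 and 7.92 with flagellin, against 8.68, 9.33 and 9.30 unstimulated, a change of -1.15 ± 0.31 (limma adjusted p 0.0147). Its groups overlapped, since flagellin array 1 was above unstimulated array 1. Adar, which edits adenosine in double-stranded RNA, had 10.07, 9.67 and 9.71 with flagellin, against 10.33, 10.95 and 11.04 unstimulated. Its change was -0.96 ± 0.14, smaller than in the other 7 genes, with an adjusted p of 0.00193 by limma. The exonuclease gene Isg20, Samd9l and Znfx1 were 4.98-fold, 2.78-fold and 2.33-fold lower.

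In ISG15 conjugation all 4 measured genes fell. Usp18, which removes ISG15 and restrains the interferon receptor, had 10.97, 8.29 and 9.26 with flagellin, against 11.28, 12.45 and 12.61 unstimulated, a change of -2.60 ± 0.54 (limma adjusted p 0.00464). Herc6, an ISG15 ligase of the mouse, was 4.71-fold lower, Uba7, the activating enzyme, 1.83-fold and the ligase gene Trim25 1.62-fold. The 4 genes of ADP-ribosylation and its partners, Parp9, Parp12, Parp14 and Dtx3l, fell by 1.38 to 1.85 on the log2 scale. Among them Parp14 had 11.55, 10.03 and 10.17 with flagellin, against 11.91, 12.66 and 12.74 unstimulated. The groups did not overlap, and the change was -1.85 ± 0.43 (limma adjusted p 0.00685). Trim21, the intracellular antibody receptor, was 3.40-fold lower. Trim30a, a mouse TRIM protein, had 11.87, 10.69 and 10.71 with flagellin, against 12.18, 12.81 and 12.86 unstimulated, a change of -1.53 ± 0.33 (limma adjusted p 0.00549).

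The genes of nuclear bodies, cell death and partner proteins fell in 6 of 7 cases. Daxx, a histone chaperone, had 11.04, 9.97 and 10.06 with flagellin, against 11.37, 12.17 and 12.19 unstimulated, a change of -1.55 ± 0.30 (limma adjusted p 0.00342). Xaf1, an antagonist of an apoptosis inhibitor, was 2.85-fold lower, and Nmi and Ifi35, which bind each other, 2.34-fold and 2.65-fold. Sp100 of nuclear bodies was at -0.83 ± 0.32 and did not pass (limma adjusted p 0.0638). The other 3 that did not pass encode membrane or secreted proteins. Bst2, which tethers virions to the cell surface, had 11.38, 10.55 and 10.84 with flagellin, against 11.38, 11.45 and 11.57 unstimulated, a difference of -0.54 ± 0.21 (limma adjusted p 0.0734). Ifitm3, which blocks viral fusion in endosomes, had 13.25, 12.40 and 12.84 with flagellin, against 13.19, 13.15 and 13.24 unstimulated, a difference of -0.36 ± 0.17 (limma adjusted p 0.124). Lgals3bp, a secreted galectin-binding protein, had 12.68, 12.27 and 12.53 with flagellin, against 12.68, 12.62 and 12.66 unstimulated, a difference of -0.16 ± 0.13 (limma adjusted p 0.404). In all 3 the groups overlapped, and the unstimulated arrays were close to each other.

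**Figure D2:**
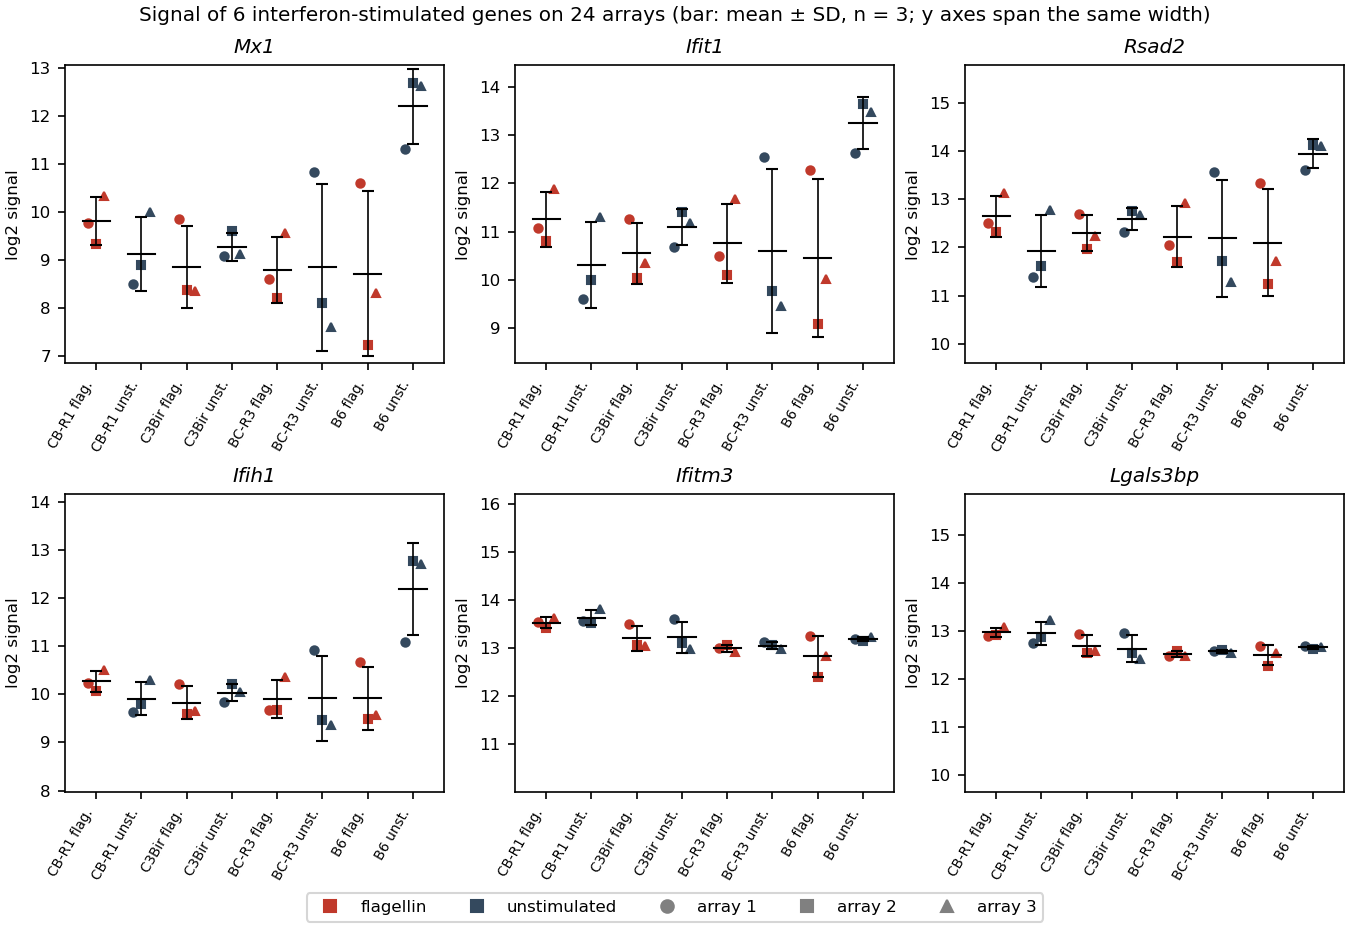
Log2 signal (y axes, all of the same width) of 6 genes on each array of the 8 groups (x axis); symbols mark the array number, and bars the mean ± SD of 3 arrays. Mx1, Ifit1, Rsad2 and Ifih1 are highest on B6 unstimulated arrays 2 and 3. Ifitm3 and Lgals3bp span less, 1.41 and 0.95 over the 24 arrays, and are highest on CB-R1 unstimulated array 3.

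Of the 35 genes called in B6, 22 passed whichever array was left out, among them Mx1, Mx2, Usp18, Cmpk2, Ifih1, Dhx58, Ddx60, Trim30a, Parp14, Adar and Daxx. With B6 unstimulated array 2 left out 23 were called, and with array 3 left out 22. A limma fit of these 6 arrays alone called 0 of the 39 genes and 0 of all genes, with 4524 of all genes at an unadjusted p under 0.05. Leaving aside B6 unstimulated arrays 2 and 3 also gave 0 by limma, where 1316 of all genes had an unadjusted p under 0.05, and a median change of -1.07 over the 39 genes. On B6 unstimulated arrays 2 and 3 the mean over 5 stromal cell markers was 8.71 and 9.25, against 7.24 to 9.13 on the other 22 arrays, so array 3 alone was above them. B6 flagellin array 2, the lowest in most of the 39 genes, had a stromal mean of 8.89. Of 5 plasmacytoid dendritic cell markers, Tcf4 was at 9.71 and 9.68 there, where the other 22 arrays ran from 8.14 to 9.56. The mean of the other 4, at 7.23 and 7.12, lay within the range of the other arrays, 6.76 to 7.24. All 5 of each list were above the lower quartile on all arrays. The summed stromal signal was 12.20 and 12.92 in log2, against 10.04 to 12.57, and the summed plasmacytoid signal 10.54 and 10.51, against 9.81 to 10.42. The part of these markers in the result was not tested. The other probe sets of the called genes, 32 of 20 genes, all had the same sign.

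Of the 33 genes listed as the interferon pathway itself, 31 were measured, and in B6 with flagellin 12 were lower and 1 was higher (limma), where 9.49% of all genes were lower and 12.9% higher. Without B6 unstimulated array 2 or 3 the count was 6 and 5, all lower. It was 0 in a limma fit of the 6 arrays alone, and 0 when both arrays were left aside, with the unadjusted counts of all genes given above. Irf1, Socs1, Ddx58, Tlr3 and Cgas passed whichever 1 array was left out. The ligand gene Ifnb1 lay near the array median, at 6.41 ± 0.06 with flagellin, against 6.78 ± 0.33 unstimulated, and fell by 0.37 (limma adjusted p 0.0236). Ifna4 and Ifng were below the lower quartile on all arrays. The receptor genes Ifnar1 and Ifnar2 did not pass, at 0.21 ± 0.11 and 0.04 ± 0.10. The kinase genes Jak2 and Tyk2 fell by 1.35 and 0.61 on the log2 scale, and the transcription factor genes Irf7, Stat2 and Irf1 by 1.75, 1.46 and 1.45. Irf9, the DNA-binding partner of the STAT proteins, was at -0.51 ± 0.18 and did not pass (limma adjusted p 0.0532). The inhibitor gene Socs1 fell by 1.85 and the phosphatase gene Ptpn2 by 0.57. Of the sensors and adaptors, Ddx58, which encodes RIG-I, Tlr3, Cgas and Myd88 fell by 1.69, 1.39, 1.05 and 0.75, while Mavs, the mitochondrial adaptor of RIG-I and MDA5, rose by 0.38 (limma adjusted p 0.0214). With B6 unstimulated arrays 2 and 3 left aside, the difference was -1.24 in Irf7, -1.16 in Ddx58, -0.69 in Socs1, -0.46 in Tlr3 and 0.12 in Mavs, and none of the 31 genes passed.

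In the other 3 strains limma called 0 of the 39 genes between the conditions, and 0% of all genes in each. In C3Bir the median difference was -0.19, with 1 gene at an unadjusted p under 0.05, in BC-R3 -0.02 with 0, and in CB-R1 0.31 with 0. Of all genes 7.87%, 8.71% and 2.84% had such a p in these strains. Ifit1 in C3Bir had 11.27, 10.04 and 10.34 with flagellin, against 10.67, 11.41 and 11.19 unstimulated, a difference of -0.54 ± 0.74. In BC-R3 it had 10.50, 10.09 and 11.67 with flagellin, against 12.56, 9.77 and 9.45 unstimulated, with a spread of over 3 log2 units among the unstimulated arrays. In CB-R1 it had 11.08, 10.80 and 11.89 with flagellin, against 9.60, 9.98 and 11.30 unstimulated. This difference, 0.96 ± 0.74, was the largest among the 39 genes in CB-R1, and the arrays overlapped.

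The direction in CB-R1 was shared, with 38 of 39 genes higher with flagellin, but the arrays of the conditions overlapped in the mean over the genes. Between CB-R1 arrays of the same number, that mean was higher with flagellin by 0.60, 0.27 and 0.17 for numbers 1, 2 and 3, and 30 of the 39 genes were higher in 3 of 3 pairs. The share of all genes was not set beside this count, nor beside the counts of signs here and below. Since the 39 genes moved together, such counts do not stand for separate results. With strain and number as blocks, limma called 0 of the 39 genes in CB-R1. Of the 39, 0 had an unadjusted p under 0.05, against 584 of all genes. That fit took 1 spread from all strains, BC-R3 and B6 included, where numbers were not read as pairs. In BC-R3 the differences of the mean by number were -0.83, 0.11 and 0.71. The count is thus not a paired test of CB-R1 alone. Rsad2 in CB-R1 had 12.51, 12.32 and 13.13 with flagellin, against 11.38, 11.62 and 12.77 unstimulated. Ifit3 had 11.85, 11.63 and 12.53 with flagellin, against 10.61, 10.92 and 12.12 unstimulated, a difference of 0.79 ± 0.61. In both genes array 3 of each condition was the high one, and CB-R1 flagellin array 3 was above the other 2 of its group in 38 of 39 genes, against 30.9% of all genes. Ifitm3, at -0.10 ± 0.17, was the one gene with a negative difference. Trim25 in C3Bir had 11.28, 11.19 and 11.14 with flagellin, against 11.11, 10.80 and 10.71 unstimulated. Its arrays did not overlap, which 7.07% of all genes showed in that direction, and the difference of 0.33 ± 0.13 had an adjusted p of 0.624 (limma). In BC-R3 the same gene had 10.86, 11.05 and 10.91 with flagellin, against 11.24, 11.14 and 11.12 unstimulated, where 7.34% of all genes did not overlap in that direction, a difference of -0.22 ± 0.13 (limma adjusted p 0.651).

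**Figure D3:**
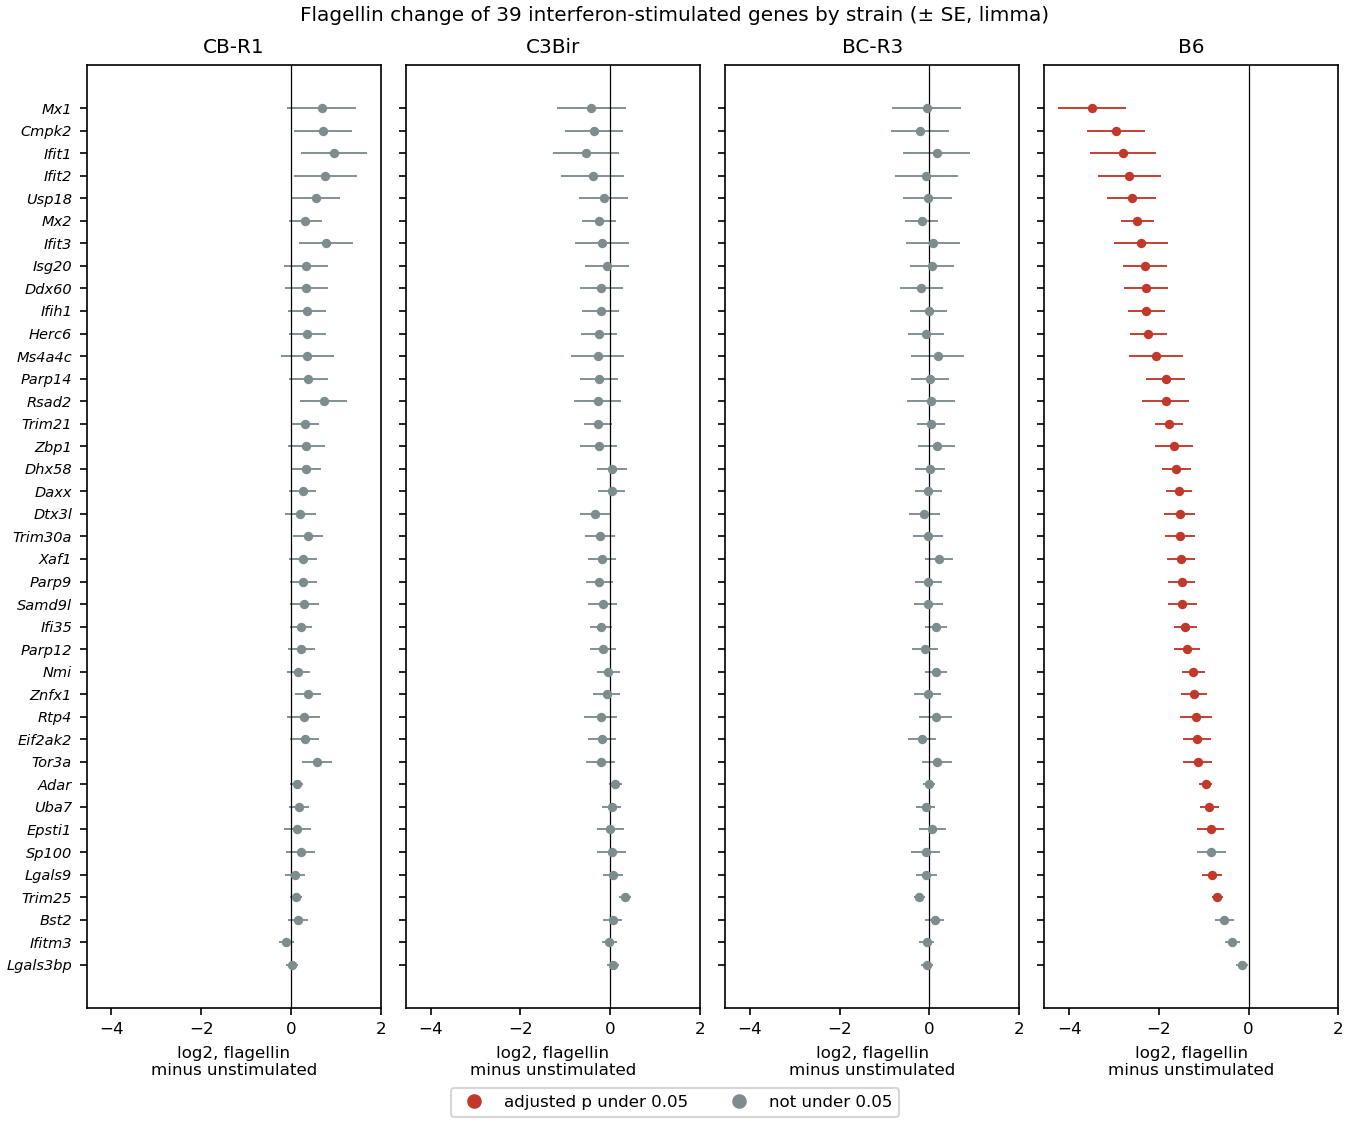
Difference of log2 signal, flagellin minus unstimulated (x axis, ± SE from limma), of the 39 genes (rows) in each strain (panels); red points have an adjusted p under 0.05. The B6 points run from -3.49 to -0.16, and the points of the other 3 strains lie between -0.54 and 0.96.

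Whether the change differed between strains was tested on the difference itself. For BC-R3 minus B6 16 of 39 genes differed, all with a higher value in BC-R3 (limma), where 4.16% of all genes were higher and 6.38% lower. The median difference was 1.53, against 0.02 over all genes. The 16 were Mx1, Mx2, Usp18, Herc6, Isg20, Ifih1, Dhx58, Adar, Samd9l, Parp9, Trim21, Trim30a, Daxx, Ifi35, Nmi and Xaf1. In Mx1 it was 3.43 ± 1.08 (limma adjusted p 0.0481) and in Adar 0.95 ± 0.20 (limma adjusted p 0.0159). Ifit1, at 2.96 ± 1.05, did not pass. Of the 16 genes, 0 passed whichever array was left out. Leaving out B6 unstimulated array 1, 2 or 3 gave 30, 0 and 0 genes, and leaving out B6 flagellin array 1, 2 or 3 gave 32, 9 and 4. The number was 30, 0 and 0 without BC-R3 unstimulated array 1, 2 or 3 and 10, 6 and 1 without BC-R3 flagellin array 1, 2 or 3. For C3Bir minus B6 the value was positive in 39 of 39 genes with a median of 1.31, and limma called 0, with 32 at an unadjusted p under 0.05, against 13.4% of all genes with such a p and 0% called. Leaving out an array moved this to 18 (B6 unstimulated array 1), 9 (B6 flagellin array 1) and 1 (C3Bir unstimulated array 1). For CB-R1 minus C3Bir the median was 0.49, with 0 called by limma, 0 at an unadjusted p under 0.05, against 4.91% of all genes, and 0% of all genes called. These differences and the comparisons with unstimulated B6 cells share the same 3 B6 arrays.

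Between the parents, unstimulated C3Bir cells had lower levels than unstimulated B6 cells in 28 of the 39 genes and higher in 0 (limma), where 6.30% of all genes were lower. The median was -1.42, against 0.00 over all genes, and 35 of 39 genes did not overlap, which held for 13.2% of all genes in that direction. Mx1 had 9.10, 9.61 and 9.13 in unstimulated C3Bir, against 11.31, 12.69 and 12.63 in unstimulated B6, and was 7.62-fold lower (-2.93 ± 0.77, limma adjusted p 0.0116). Nmi had 8.25, 8.71 and 8.46 in C3Bir, against 9.42, 10.44 and 10.53 in B6, a difference of -1.66 ± 0.25 (limma adjusted p 0.000155). The C3Bir arrays were close to each other, and the spread lay in B6. Ifit1 and Ifit2, at -2.16 ± 0.74 and -1.99 ± 0.70, did not pass despite arrays that did not overlap (limma adjusted p 0.0515 and 0.0577). Ifitm3 had 13.60, 13.09 and 12.98 in C3Bir, against 13.19, 13.15 and 13.24 in B6, a difference of 0.03 ± 0.17. Leaving out B6 unstimulated array 2 gave 13 genes, leaving out array 3 gave 14, and leaving out both gave 0 in limma, with a median of -0.86, 406 of all genes called and 2191 at an unadjusted p under 0.05.

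Unstimulated BC-R3 cells, which share the B6 background, were also lower than unstimulated B6 cells, in 33 of 39 genes with 0 higher (limma), where 12.7% of all genes were lower. The median was -1.44, against -0.03 over all genes, and 38 of 39 genes did not overlap, against 19.9% of all genes in that direction. Mx1 had 10.85, 8.10 and 7.60 in BC-R3, against 11.31, 12.69 and 12.63 in B6, and was 10.2-fold lower (limma adjusted p 0.00353). Array 1 of each group lay nearest the other group. Cmpk2 had 11.62, 9.55 and 9.13 in BC-R3, against 11.72, 13.18 and 12.95 in B6, a difference of -2.52 ± 0.64 (limma adjusted p 0.00700). The 6 genes that did not pass were Eif2ak2, Bst2, Rtp4, Sp100, Lgals3bp and Ifitm3. The count was 21 without BC-R3 unstimulated array 3, and 0 in limma without B6 unstimulated arrays 2 and 3, where the median was -0.99 and 2307 of all genes had an unadjusted p under 0.05. A limma fit of these 6 arrays alone called 0 of the 39 genes, with 6298 of all genes at an unadjusted p under 0.05.

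With flagellin few of the genes differed between strains. C3Bir against B6 had 0 of 39 genes called by limma, and a median of 0.17, where 6.63% of all genes were called. Of the 39, 2 had an unadjusted p under 0.05, a smaller share than the 19.0% of all genes. The count was 2 without B6 flagellin array 1. Ddx60 had 8.61, 7.52 and 7.64 in C3Bir with flagellin, against 8.52, 5.80 and 7.06 in B6 with flagellin, a difference of 0.80 ± 0.49. BC-R3 against B6 had 0 called by limma, 0 at an unadjusted p under 0.05, against 3.64% of all genes, and 0.0165% of all genes called, with a median of 0.09. Rtp4, a receptor-transporting protein, had 11.39, 11.33 and 11.83 in BC-R3, against 12.14, 10.20 and 10.97 in B6, a difference of 0.41 ± 0.36. The groups overlapped in both genes.

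CB-R1 against C3Bir tested the B6 segment of chromosome 3 on the C3Bir background. With flagellin 39 of 39 genes were higher in CB-R1, with a median of 0.47, and 0 passed, with 8 at an unadjusted p under 0.05 (limma), against 8.09% of all genes, and 0.0550% of all genes called. Ms4a4c, a membrane protein gene of the MS4A family, had 10.47, 10.26 and 11.33 in CB-R1 with flagellin, against 10.41, 8.60 and 8.39 in C3Bir with flagellin, a difference of 1.55 ± 0.60. Ifit3 had 11.85, 11.63 and 12.53 in CB-R1, against 11.88, 10.45 and 10.53 in C3Bir, a difference of 1.05 ± 0.61. C3Bir flagellin array 1 overlapped CB-R1 in both. Of the 39 genes 2 did not overlap, Ifi35 and Lgals9, against 10.2% of all genes in that direction. On unstimulated arrays 0 genes passed, with 4 at an unadjusted p under 0.05 (limma), against 17.7% of all genes, and 1.01% of all genes called. The count was 4 without C3Bir unstimulated array 1. The values there ran from -0.79 ± 0.74 in Ifit1 to 0.91 ± 0.60 in Ms4a4c. Other cell markers differed between these strains as well. With flagellin the mean over 5 neutrophil markers was 13.24 to 13.50 in CB-R1, against 12.35 to 13.11 in C3Bir, and their summed signal 15.72 to 15.95 in log2 in CB-R1, against 14.999 to 15.62 in C3Bir. The stromal mean was 8.71 to 8.93 in CB-R1 with flagellin, against 7.57 to 8.14 in C3Bir with flagellin. The part of these markers in the result was not tested.

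Pooled over strains with flagellin, the C3Bir background (CB-R1 and C3Bir) had 3 genes higher and 0 lower than the B6 background (BC-R3 and B6) in limma, where 8.74% of all genes were higher. The 39 genes were thus not called higher more often than all genes. They were Ifitm3 at 0.45 ± 0.12 (limma adjusted p 0.0125), Trim25 at 0.36 ± 0.09 (limma adjusted p 0.00748) and Lgals3bp at 0.32 ± 0.10 (limma adjusted p 0.0248). Ifitm3 had 13.55, 13.41 and 13.63 in CB-R1 and 13.51, 13.07 and 13.03 in C3Bir, against 13.00, 13.06 and 12.92 in BC-R3 and 13.25, 12.40 and 12.84 in B6, all with flagellin. CB-R1 lay above the rest except C3Bir array 1. Of the 2 other probe sets of Trim25, 1 had the opposite sign, at -0.36 ± 0.16, with an unadjusted limma p under 0.05. The lowest value of Trim25 over 20 alternative settings was 0.12, and in 1 of them it did not pass (limma adjusted p 0.523). Lgals3bp did not pass in 5 of its 20 settings, each with 1 array left out (limma adjusted p up to 0.0778). Ddx60 and Usp18 had the largest values, 1.02 ± 0.34 and 0.86 ± 0.38, and did not pass (limma adjusted p 0.0525 and 0.155). Without B6 flagellin array 1, 12 genes passed. The neutrophil marker mean was 13.24 to 13.50 in CB-R1 and 12.35 to 13.11 in C3Bir, against 12.33 to 12.76 in BC-R3 and 11.64 to 12.78 in B6, all with flagellin. The summed signal of these markers was 15.72 to 15.95 in CB-R1 and 14.999 to 15.62 in C3Bir, against 15.0015 to 15.32 in BC-R3 and 14.47 to 15.37 in B6. Their part in the result was not tested. By Cdcs1 allele, C3Bir (C3Bir and BC-R3) against B6 (CB-R1 and B6), 38 of 39 genes were lower with flagellin, with a median of -0.22, and 0 passed, with 0 at an unadjusted p under 0.05 (limma), against 4.41% of all genes, and 0.0385% of all genes called. Adar, the one gene of the 40 on chromosome 3, differed by 0.00 ± 0.10 between these pooled groups. Whether Adar lies within the segments exchanged in CB-R1 and BC-R3 was not examined.

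Since the 39 genes moved together, each was also set against their mean on the same array, as a description with no test. This removes the shared movement and shows only unequal movement. Trim30a then separated the backgrounds, at 0.26 to 0.61 with a median of 0.43 on the 12 arrays of C3Bir background, against 0.97 to 1.45 with a median of 1.06 on the 12 of B6 background. It was the one gene of 39 whose 12 arrays of C3Bir background all lay below those of B6 background, against 0.0989% of all genes on this scale. That share is no fair baseline, since subtracting the mean adds the movement of the 39 genes to genes that do not share it. On values as deposited, 0 of the 39 genes and 1.23% of all genes separated in that direction. The other probe set of Trim30a, however, gave 0.05 to 0.26 on the arrays of C3Bir background, against -0.02 to 0.40 on those of B6 background, so the first range lay within the second. The separation thus belongs to 1 probe set, and whether a sequence difference under its probes plays a part was not tested. Nmi and Trim21 were the next lowest in C3Bir background, by -0.57 and -0.54 on average, with overlapping arrays. The other probe set of Trim21 differed by 0.09. Ifitm3 and Ddx60 were at the other end, at 0.50 and 0.49.

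**Figure D4:**
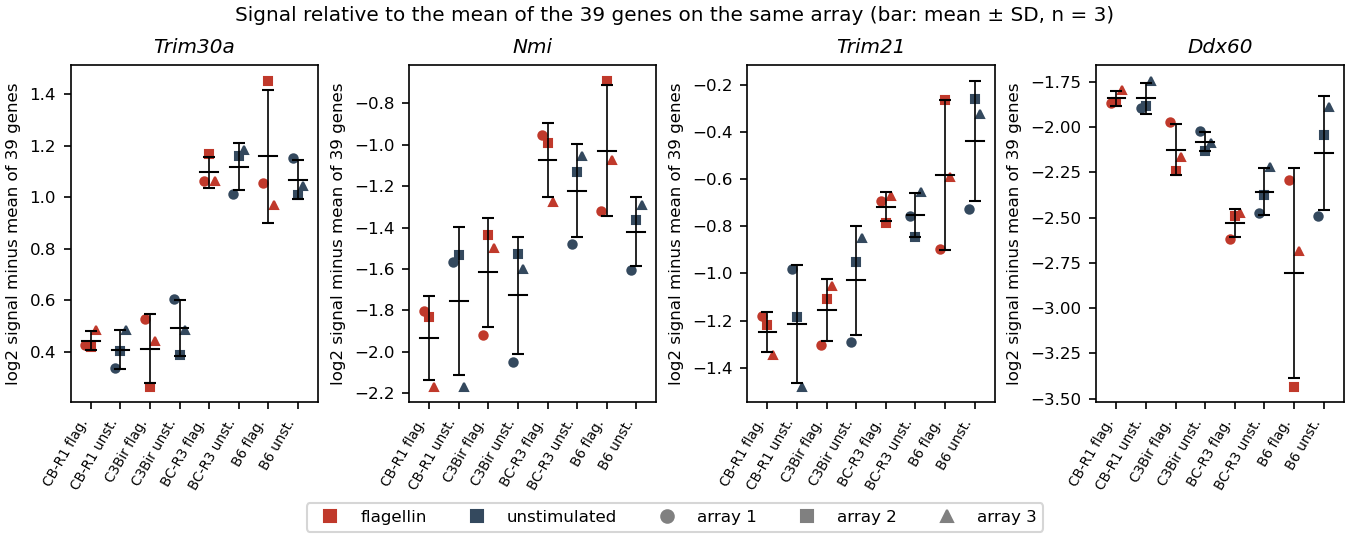
Log2 signal of 4 genes minus the mean of the 39 genes on the same array (y axes, each with its own range), by group (x axis); symbols mark the array number, and bars the mean ± SD of 3 arrays. Trim30a lies at 0.26 to 0.61 on the 12 arrays of CB-R1 and C3Bir and at 0.97 to 1.45 on the 12 of BC-R3 and B6, while the other 3 genes overlap.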

How the data were processed

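For 24 Affymetrix arrays, 3 in each of 8 strain-by-condition groups, the authors deposited log2 values of probe sets, which were used unchanged. The method of summarising and normalizing them is not given in the sources used. Of 45037 probe sets, 4 had no values; of the rest 34944 carried 1 gene symbol, 9158 none, and 931 more than 1 and were not used. Of 18193 genes, 9010 had several probe sets, and the one with the highest mean over all arrays was taken.

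The 8 group means were fitted to all arrays with limma 3.58.1 in R 4.3.3, with eBayes (16 residual and 3.99 prior degrees of freedom). The 15 contrasts were tested two-sided over all genes, with Benjamini-Hochberg adjustment in each contrast, and called at an adjusted p under 0.05. The fit was tested on simulated data. Members, lists and comparisons were chosen with earlier results of these data known. Named genes were a set of 20 plus the 2 highest and 2 lowest members of each comparison. Further genes were named as examples of their role. Alternatives were median centring, quantile normalization, a low-value filter, averaged probe sets, other eBayes settings, the compared arrays alone, replicate blocks and leaving out each array. Leaving aside B6 unstimulated arrays 2 and 3, and fixed blocks by strain and number, were chosen after seeing the data. Same-numbered arrays of a strain deviated together, at a correlation over 0.1, in 3 of 3 pairs in CB-R1 (0.30 to 0.50) and C3Bir (0.31 to 0.48). This held for 1 of 3 in BC-R3 (-0.54 to 0.31) and B6 (-0.35 to 0.11). Numbers were thus read as pairs, from the data and not from the labels, within CB-R1 and C3Bir only. Promoters came from RefSeq, build GRCm38.p6.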

Additional observations from a re-analysis of the deposited data

Results flagged for a closer look

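The flagellin change differed between BC-R3 and B6, by a test of the difference itself, in 16 of the 39 genes (limma, log2, BC-R3 minus B6), where 4.16% of all genes were called in that direction. Of the 16, 0 passed whichever array was left out, and a limma fit of the compared arrays alone called 0, with 4465 of all genes at an unadjusted p under 0.05. The value was 3.43 in Mx1, 2.57 in Usp18, 2.38 in Isg20, 2.31 in Mx2, 2.26 in Ifih1 and 2.16 in Herc6. It was 1.80 in Trim21, 1.72 in Xaf1, 1.62 in Dhx58, 1.56 in Ifi35, 1.53 in Daxx and 1.503 in Trim30a. It was 1.47 in Parp9, 1.45 in Samd9l, 1.37 in Nmi and 0.95 in Adar. Adjusted p-values by limma ran from 0.0159 in Adar to 0.0481 in Mx1. The mean changes in BC-R3 lay near 0 in these genes, and those in B6 were all negative. Arrays of BC-R3 varied within a condition, as in Mx1 at 8.60, 8.22 and 9.56 with flagellin, against 10.85, 8.10 and 7.60 unstimulated. Groups of 3 arrays were not tested for single arrays far from the others.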

How the results depend on the processing

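Values of single genes were followed over all settings only for the 76 results of named genes called in the main fit. Of 1249 such values, 0 changed sign and 326 lost the call. Most settings share most arrays with the main fit, so a sign was unlikely to change. Counts of called genes among the 39 stayed within 1.5 times under median centring, the low-value filter and averaged probe sets. Exceptions among the other settings were 1 gene for C3Bir against B6 with flagellin and 5 for the C3Bir background against the B6 background after quantile normalization, and 9 for the difference BC-R3 minus B6 with eBayes trend and robust options. In limma fits of the compared arrays alone, 0 were called for the flagellin change in B6 (also 0 of its interferon pathway genes), for BC-R3 against B6 unstimulated and for the difference BC-R3 minus B6, with 4524, 6298 and 4465 of all genes at an unadjusted p under 0.05. Leaving aside B6 unstimulated arrays 2 and 3 gave 0 in limma for these, pathway genes included, and for C3Bir against B6 unstimulated, with 1316, 2307, 1710 and 2191 of all genes at an unadjusted p under 0.05; it leaves 1 such array, assumed to vary like the other groups. Leaving out 1 array at a time gave 22 to 38 genes, and 5 to 17 pathway genes, for the flagellin change in B6, 13 to 32 for C3Bir against B6 unstimulated and 21 to 34 for BC-R3 against B6 unstimulated. With flagellin it gave 0 to 2 for C3Bir against B6 and 2 to 12 for the backgrounds, and 0 to 4 for CB-R1 against C3Bir unstimulated. It gave 0 to 32 for the difference BC-R3 minus B6 and 0 to 18 for C3Bir minus B6. The causes were not tested beyond the smaller number of arrays. Counts with 1 array left out were not set against the share of all genes called in the same fits.

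With the array number as a fixed replicate block the counts were 35 for the flagellin change in B6, 30 and 34 for C3Bir and BC-R3 against unstimulated B6, 4 for the backgrounds and 18 for BC-R3 minus B6. With strain and number as a random block, at a correlation of 0.0916, they were 36, 28, 33, 3 and 23, and with fixed blocks by strain and number 38 for the change in B6 and 11 for BC-R3 minus B6. No other count moved under a block. In C3Bir and CB-R1, where numbers were read as pairs, the block changed no call. The block fits shared their spread with B6 and BC-R3, so they are not paired tests of C3Bir or CB-R1 alone. Counts under blocks were not set against the share of all genes called in the same fits. In B6 and BC-R3 numbers were not read as pairs, so the block counts for these strains describe the setting only.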

Other observations

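The 1 probe set for Isg15, which is annotated to 2 genes, gave 9.69, 9.50 and 10.53 in CB-R1 with flagellin, against 8.57, 8.90 and 10.03 unstimulated. In C3Bir it gave 9.97, 8.75 and 8.89 with flagellin, against 9.45, 9.96 and 9.68 unstimulated. In BC-R3 it gave 9.11, 8.93 and 9.94 with flagellin, against 10.68, 8.68 and 8.44 unstimulated, and in B6 10.56, 8.19 and 8.63 with flagellin, against 10.92, 12.17 and 12.18 unstimulated. Its highest and lowest arrays were B6 unstimulated array 3 and B6 flagellin array 2, which were also the highest and lowest arrays of the mean over the 39 genes.

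The receptor chain genes Ifnar2 and Ifngr1 differed by background on the arrays with flagellin, while the arrays of Ifnar1 and Ifngr2 overlapped. Ifnar2 had a mean of 11.91 in the C3Bir background, against 11.48 in the B6 background, a difference of 0.43 ± 0.07 (limma adjusted p 0.000339). Ifngr1, of the interferon gamma receptor, had 9.77 in the C3Bir background, against 10.23 in the B6 background, a difference of -0.45 ± 0.11 (limma adjusted p 0.00513). In both genes the 6 arrays of one background did not overlap the 6 of the other, where 5.19% of all genes were higher without overlap in the C3Bir background and 4.03% lower. The nearest arrays were at 11.687 against 11.682 in Ifnar2 and 10.005 against 10.012 in Ifngr1. Unstimulated arrays split likewise, with Ifnar2 at 11.76 to 12.08 in the C3Bir background, against 11.37 to 11.63. Ifngr1 was at 9.22 to 9.89 there, against 9.91 to 10.52. Other probe sets of Ifnar2 and Ifngr1 were not examined. Both were picked from the 31 measured pathway genes, and a count over that list was not made. Other genes of the list separated the backgrounds with flagellin too. Socs3 was at 7.18 to 7.98 in the C3Bir background, against 8.68 to 10.19 in the B6 background. Ikbke was at 10.25 to 10.91, against 10.97 to 11.56.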
